A study of Mus musculus with 17 samples.

Results

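Hox genes encode homeodomain transcription factors that give cells their position along the body axis. In the mouse they lie in 4 clusters, Hoxa to Hoxd, and genes of the same number in different clusters are paralogs of each other. Their products bind DNA together with Pbx and Meis cofactors, and their domains are kept open or closed by Trithorax and Polycomb complexes. In the mammary gland the paralogs of number 9, Hoxb9 among them, are needed together for the gland to develop normally in pregnancy. The probes of the array design were searched for 38 listed Hox genes, and 37 of them were found, with 48 probes, among 28787 genes in all. Hoxc11 was not analysed here.

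Values come from epithelial tumor cells that were cut out of frozen sections by laser capture, so that the RNA of few cells was amplified in 2 rounds before it was labeled. The 17 tumors arose in FVB mice that carry a CUX1 transgene driven by the mammary tumor virus promoter, 9 with the p75 isoform (p75-CUX1) and 8 with the p110 isoform (p110-CUX1). No tumor without a transgene and no normal gland is among the samples used here, and the ages of the mice are not given in the sources used here. By histological type there were 4 adenosquamous carcinomas, all p75-CUX1, 9 solid carcinomas (3 p75-CUX1 and 6 p110-CUX1), 2 adenomyoepitheliomas, 1 adenocarcinoma and 1 adenoma. By Wnt gene expression on these same arrays the study drew 3 clusters, read here from the tumor names under its heatmap and not found in the sample labels: 5 high-Wnt tumors (p75-47, p75-80, p75-94, p110-225 and p110-374), 5 medium-Wnt tumors (p75-90, p75-129, p75-216, p110-98 and p110-121) and 7 low-Wnt tumors (p75-101, p75-150, p75-534, p110-143, p110-314, p110-360 and p110-416). Each tumor carries its own mouse number. Each was hybridized with a common mouse reference RNA in the other color on 2 arrays with the dyes swapped, or on 4 arrays for p110-143 and p110-360, which makes 38 arrays.

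A value below is the log2 ratio of tumor over reference, and a gene is called measured in a tumor when every array of that tumor had its probe well above background for the tumor RNA. For p110-143 and p110-360, both low-Wnt, this means 4 arrays instead of 2. The number of tumors limits the precision of every mean. The share of all genes measured ran from 23.1% in p110-374 to 67.6% in p75-129. The tumor's color was weak on some arrays: at the 95th percentile of spots the reference was 8.23-fold brighter than the tumor in p110-225, 11.1-fold in p110-374 and 11.5-fold in p110-98, and between 0.646-fold and 3.95-fold in the other 14 tumors. All p110-CUX1 arrays were scanned in 1 year and all p75-CUX1 arrays in another, so transgene and scan year cannot be told apart. Of 6 epithelial markers between 5 and 6 were measured in each p75-CUX1 tumor and between 2 and 6 in each p110-CUX1 tumor. Among markers of other cells, 8 of 8 fibroblast markers were measured in at least 5 tumors, and Fabp4 of adipocytes was measured in 16 tumors. The part of other cells in the Hox values was not tested.

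The probes that the results turn on are shown as 5′ to 3′ sequence of the array design, with positions in mm7. The first pair is named Hoxd3, and its probes were measured in 17 and 0 tumors. The probe at chr2:74588190-74588249 on the plus strand, shown whole, lies in the coding sequence, and the capitals mark codons of the hexapeptide with which Hox proteins hold Pbx. The other, at chr2:74591215-74591274 on the same strand, is shown by its first 30 bases.
Hoxd3, bright probe: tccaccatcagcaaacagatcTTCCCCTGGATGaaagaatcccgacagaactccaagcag
Hoxd3, dim probe: gattgcatcggactaaacaatctgtattta

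The Hoxa7 probe at chr6:52178996-52179055 on the minus strand is shown by its last 30 bases, since capitals mark its run of 6 G, which is as long or longer in 0.313% of all probes.
Hoxa7: attgattttagttacaaaaatGGGGGGaaa

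The Hoxb9 probes, also read for their disagreement, lie at chr11:96385473-96385532 and chr11:96384790-96384849 on the plus strand. Hoxa11 at chr6:52205477-52205536 on the minus strand is shown as the Hox gene well above background in the reference on all 38 arrays but measured in no tumor. The first 30 bases of each of the 3 are given.
Hoxb9, bright probe: gcttgtgttttgtgatttctttggcagtga
Hoxb9, dim probe: tcctatcctcatttgacagaatgtaacttt
Hoxa11: tgaatgtatgcttcatacagggatggtgtt

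Of the probes named Hoxb2, the one at chr11:96462847-96462906 runs with the other genes of the cluster, and the one at chr11:96459585-96459644 reads the minus strand, opposite to them, so the latter was kept apart from the gene. Both are given by their first 30 bases.
Hoxb2, strand of the gene: tggtaaaactccttccaacgaaatctcagg
Hoxb2, opposite strand: gtaatgtattctatggtgaggcacctatga

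Most Hox genes were dim in these tumors. Of the 37 genes, 11 (29.7%) were measured in at least 5 tumors, against 48.3% of all genes on the array. Hoxa7 and Hoxd3 were measured in all 17 tumors, as were 16.4% of all genes. A further 13 Hox genes were measured in 1 to 4 tumors, and 13 (35.1%) in none, against 24% of all genes. The 11 genes measured in at least 5 tumors were Hoxa7 and Hoxd3 (17 tumors), Hoxc4 (12), Hoxb6 (11), Hoxa3 (9), Hoxb7 and Hoxc9 (8), Hoxb2, Hoxb9 and Hoxc10 (6) and Hoxc6 (5).

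By cluster, 4 of 8 Hoxc genes, 4 of 10 Hoxb genes, 2 of 10 Hoxa genes and 1 of 9 Hoxd genes were measured in at least 5 tumors. By position, the counts were 4 of 11 among paralogs 1 to 4, 4 of 11 among paralogs 5 to 8, 3 of 7 among paralogs 9 and 10, and 0 of 8 among paralogs 11 to 13. The genes at the posterior end, which pattern the distal limb and the genital tract, were thus measured in few tumors: Hoxc13 in 1, Hoxd12 in 1, Hoxd11 in 2 and Hoxd13 in 2. These counts are a description, since a probe that binds weakly also stays under background.

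**Figure D1:**
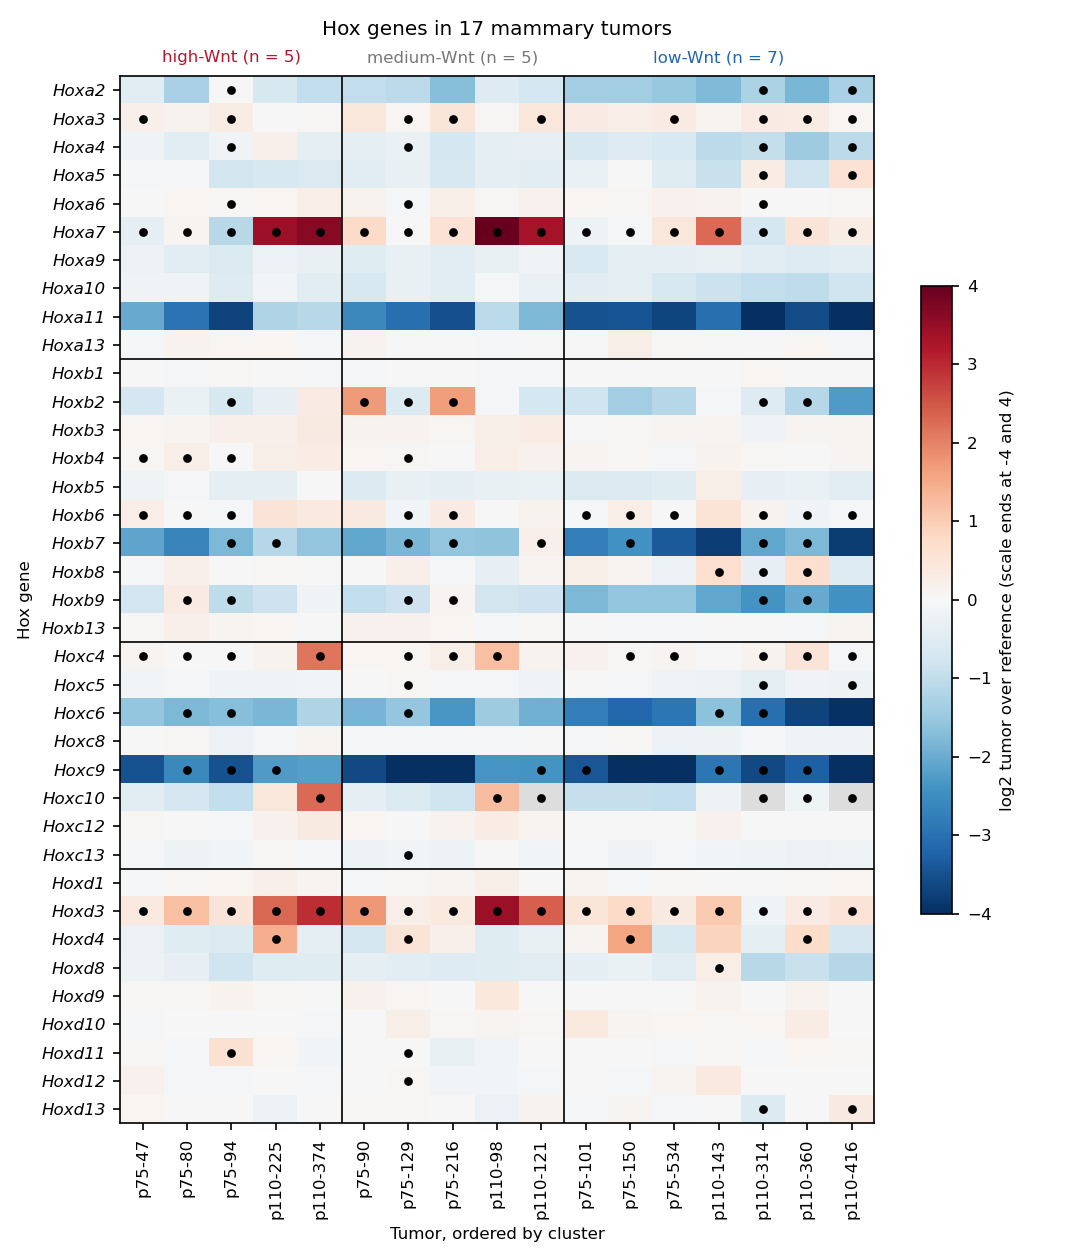
log2 ratio of tumor over reference for the 37 Hox genes (rows, by cluster and number) in 17 tumors (columns, by Wnt cluster). A dot marks a gene measured in that tumor, gray marks a value left out because its spots were outliers, and Hoxa7 and Hoxd3 are the only rows with 17 dots.

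The number of Hox genes measured in a tumor ran from 3 of 37 in p75-90 to 18 in p110-314, and it was high where many genes of any kind were measured. The tumors with most Hox genes were p110-314 (18), p75-129 (17), p75-94 (15) and p110-360 (12), and in these between 45% and 67.6% of all genes were measured. Across the 17 tumors the number of Hox genes and the share of all genes measured had r = 0.869 (rho = 0.858), a description in which both counts come from the same arrays. The mean of the 5 high-Wnt tumors was 7.6 ± 4.39 (SD), and that of the 7 low-Wnt tumors 8.86 ± 5.05 (SD) (exact two-sided permutation test, p = 0.72). It was 8.25 ± 4.79 (SD, n = 4) in adenosquamous and 9.56 ± 5.18 (SD, n = 9) in solid carcinomas (exact permutation p = 0.724). It was 8 ± 4.85 (SD, n = 9) in p75-CUX1 and 8.25 ± 4.98 (SD, n = 8) in p110-CUX1 tumors (exact permutation p = 0.95). None of the 3 differences exceeded the spread within groups.

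**Figure D2:**
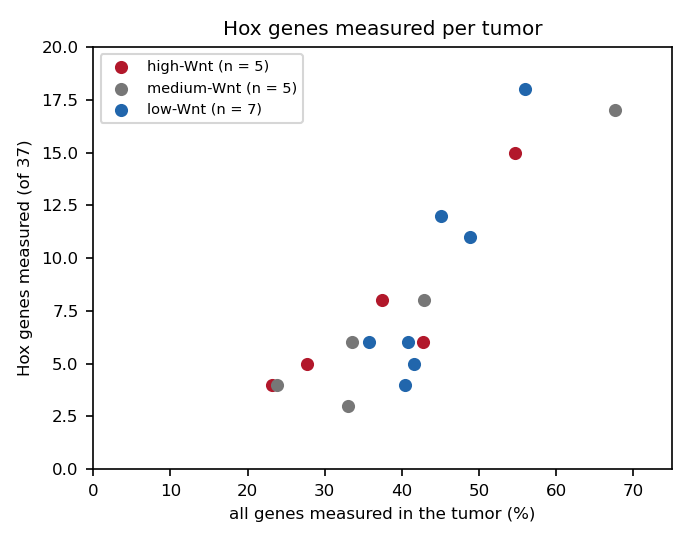
Number of Hox genes measured in each tumor (of 37) against the share of all genes measured in it, 1 point a tumor, colored by Wnt cluster. The points rise from 4 Hox genes at 23.1% of all genes (p110-374) to 17 at 67.6% (p75-129).

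Hox genes were then compared between high-Wnt and low-Wnt tumors, with the 3 clusters as groups in a limma fit. Hoxb9 was higher in high-Wnt tumors and was the only Hox gene of 37 that passed the adjusted threshold of 0.05 over all genes, which 0.233% of all genes passed (67 genes, 47 higher and 20 lower). At an unadjusted p under 0.05 there were 10 Hox genes (27%), 9 higher and 1 lower, against 12% of all genes. Of these 10, Hoxb9, Hoxc6, Hoxb7 and Hoxc9 were measured in at least 5 tumors, Hoxa4 in 4 and Hoxa2 in 3. Hoxa10, Hoxa11, Hoxb3 and Hoxd10 were measured in 0, so their ratios rest mostly on tumor spots not well above background. The median difference over the Hox genes was 0.09, beside 0.02 over all genes, and 29 of 37 differences were above 0. With Feature Extraction's processed signals the Hox median was 0.43, beside 0.02 over all genes, and 28 of 37 were above 0. In the tumor's color alone the Hox median was 0.05, beside 0.04 over all genes, and 25 of 37 were above 0. The share of all genes above 0 is not given here.

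Hoxb9 was near or below the reference in most tumors. Among high-Wnt tumors its log2 ratio was 0.31 in p75-80, -0.13 in p110-374, -0.77 in p75-47, -0.83 in p110-225 and -1.03 in p75-94. Among medium-Wnt tumors it was 0.12 in p75-216, -0.74 in p110-98, -0.82 in p75-129, -0.84 in p110-121 and -0.98 in p75-90. Among low-Wnt tumors it was lowest in p110-416 (-2.42), with a median of -2.03 in p110-360, and highest in p75-534 (-1.58). The high-Wnt and low-Wnt values did not overlap, and the medium-Wnt values lay within the range of the high-Wnt values. Between high-Wnt and low-Wnt tumors 2 of the 37 Hox genes did not overlap. The share of all genes without overlap is not given here.

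The 5 high-Wnt tumors averaged -0.49 ± 0.56 (SD) and the 7 low-Wnt tumors -1.98 ± 0.35 (SD), which differ by 1.49 ± 0.25 (SE, limma adjusted p = 0.0287). The exact permutation p was 0.00253, the smallest that 5 against 7 tumors can give. The call was kept under 7 of 17 other settings. It was lost without background correction (limma adjusted p = 0.109), with Feature Extraction's processed signals (0.281), with median centering (0.699), with the tumor in Cy5 alone (0.13) or Cy3 alone (0.0757), and with trend and robust estimation (0.0511). With the mean of all Hoxb9 probes the difference was 0.89 (limma adjusted p = 0.022). The call was kept without 4 of the 12 tumors in turn. It was lost, with differences between 1.29 and 1.57, without p75-80 (limma adjusted p = 0.0545), p75-101 (0.0563), p110-143 (0.0523), p110-225 (0.0538), p110-314 (0.064), p110-360 (0.0658), p110-374 (0.0862) or p110-416 (0.0522). The difference was 1.16 within p75-CUX1 tumors (limma adjusted p = 0.545) and 1.75 within p110-CUX1 tumors (0.0368), whose high-Wnt tumors are p110-225 and p110-374, both of weak tumor color and neither measuring Hoxb9, and the difference between these effects was not past the threshold (-0.59, limma adjusted p = 0.691).

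Of the high-Wnt tumors 2 of 5 measured Hoxb9, namely p75-80 and p75-94, as did 2 of 5 medium-Wnt tumors, p75-129 and p75-216, and 2 of 7 low-Wnt tumors, p110-314 and p110-360, while the reference was above background on all 38 arrays. In the other 11 tumors the ratio sets a reference above background against a tumor spot that was not well above it. In the tumor's color alone, after quantile normalization and without the reference, the high-Wnt tumors were 0.64 higher (limma adjusted p = 0.28), which ends the call. Normalized between arrays, the log2 tumor signal was highest in p75-80 (9.01) and p75-216 (8.81), the same tumors whose ratio was above 0.

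The mean log2 ratio over 6 basal and myoepithelial markers ran from 3.49 to 5.16 in high-Wnt and from -0.19 to 3.44 in low-Wnt tumors, so it did not overlap between these groups either. None of the 6 passed the adjusted threshold in limma, and 2 of 6 had an unadjusted p under 0.05, against 12% of all genes. Of 5 squamous markers none passed, and 4 had an unadjusted p under 0.05, among them Ivl, which was measured in 0 tumors, and Krt6a, which was measured in 3. The part of these cells in the Hoxb9 difference was not tested.

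The dim Hoxb9 probe did not give the same order. Its log2 ratio was -0.67 in p75-80 and -0.60 in p75-216, where it was not measured. It was highest in p75-129 (0.70), one of the 2 tumors in which it was measured. It was 0.29 higher on average in the 5 high-Wnt tumors than in the 7 low-Wnt tumors (exact permutation p = 0.0278), the same direction as the bright probe. But the dim probe was measured in only 1 of these high-Wnt tumors and 0 of these low-Wnt tumors.

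Hoxa4 and Hoxc6 had the next lowest p-values and did not pass the adjusted threshold. Hoxa4 averaged -0.18 ± 0.24 (SD) over the 5 high-Wnt and -0.89 ± 0.32 (SD) over the 7 low-Wnt tumors, which differ by 0.72 ± 0.15 (SE, limma adjusted p = 0.0589), and its values did not overlap. Hoxc6 averaged -1.61 ± 0.26 (SD) and -3.02 ± 0.75 (SD) over the same tumors, which differ by 1.41 ± 0.31 (SE, limma adjusted p = 0.0711), with p110-143 (-1.64) the one low-Wnt tumor inside the high-Wnt range. In the tumor's color alone the differences were 0.12 for Hoxa4 and -0.0045 for Hoxc6, which turned its sign. The other Hoxa4 probe was measured in 0 tumors and differed by -0.02 (exact permutation p = 0.669). Without p110-143 the Hoxc6 difference was 1.64 (limma adjusted p = 0.0237).

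Hoxa11, which patterns the forearm and the uterus, was chosen here after its values were seen and is given beside these genes. Its reference was above background on all 38 arrays and it was measured in 0 of 17 tumors, a combination found for 33 of 28787 genes. Its tumor spots were well above background on 5 single arrays, all of p110-CUX1 tumors. Its log2 ratio ran from -4.35 in p110-314 to -1.08 in p110-98, and the 3 tumors nearest to 0 were those of the weakest tumor color. It averaged -2.20 ± 1.12 (SD) over the high-Wnt and -3.68 ± 0.45 (SD) over the low-Wnt tumors, which differ by 1.47 ± 0.48 (SE, limma adjusted p = 0.211). This is close in size to the difference of Hoxb9. Within p110-CUX1 tumors it was 2.62 (limma adjusted p = 0.0478) and within p75-CUX1 tumors 0.65 (0.81), while in the tumor's color alone it was 0.0086 (0.989). With the strength of the tumor's color as a covariate the Hoxa11 difference was 0.74 (limma adjusted p = 0.314) and the Hoxb9 difference 1.51 (0.0745). Without the 3 tumors of weakest color, an alternative chosen after seeing the data, they were 0.78 (limma adjusted p = 0.668) and 1.48 (0.13).

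**Figure D3:**
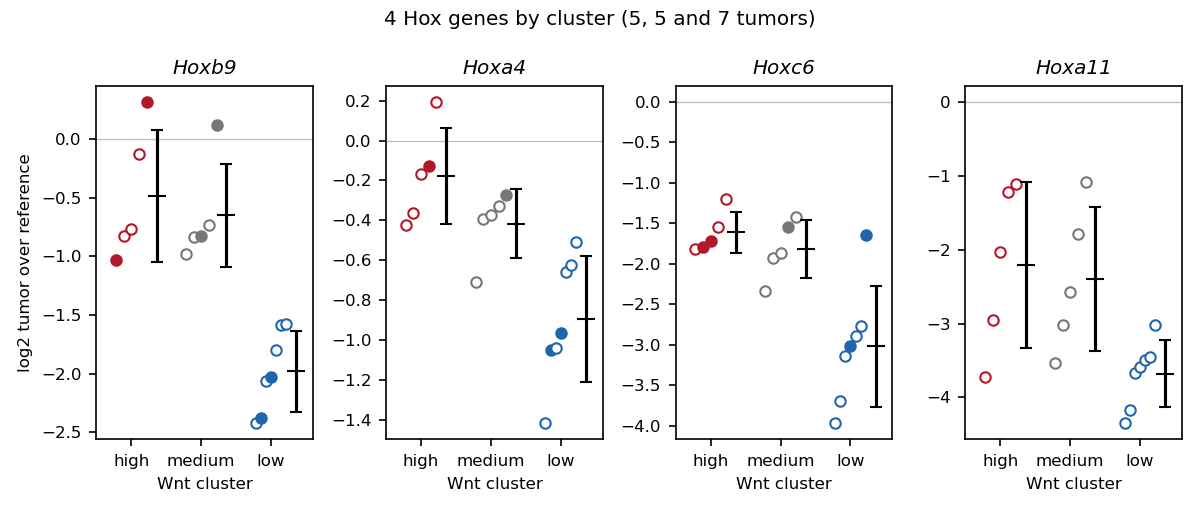
log2 ratio of tumor over reference for Hoxb9, Hoxa4, Hoxc6 and Hoxa11 by Wnt cluster (5, 5 and 7 tumors), 1 point a tumor, filled where the gene was measured, with the mean and SD beside the points and a separate axis for each gene. High-Wnt and low-Wnt points do not overlap for Hoxb9 and Hoxa4, and no Hoxa11 point is filled.

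Among the other genes measured in at least 5 tumors, Hoxb7, linked to growth factor output in breast tumor cells, was far below the reference in all tumors but 1: it ran from -3.79 in p110-416 to -1.14 in p110-225, with 0.20 in p110-121, where it was measured. Hoxc9, a spinal cord patterning gene, ran from -4.72 in p75-216 to -2.19 in p110-374, neither of which measured it. In the 8 tumors that measured it, it ran from -3.62 in p110-314 to -2.26 in p110-225. Hoxb7 averaged -1.86 ± 0.57 (SD) in the 5 high-Wnt and -2.86 ± 0.80 (SD) in the 7 low-Wnt tumors (limma adjusted p = 0.368), and Hoxc9 differed by 1.07 ± 0.47 (SE, limma adjusted p = 0.384). Neither passed.

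Hoxb2, a gene of hindbrain patterning, was above the reference in 2 tumors that measured it, p75-90 (1.70) and p75-216 (1.66), both medium-Wnt. In the other 4 tumors that measured it the ratio was -0.52 in p110-314, -0.55 in p75-129, -0.64 in p75-94 and -1.14 in p110-360. The opposite-strand probe followed another order: it was highest in p110-143 (4.03), then in p75-216 (2.42) and p75-150 (1.78), and was measured in 8 tumors. Only p75-216 was among the highest for both strands.

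Hoxb6, Hoxa3 and Hoxc4 stayed close to the reference. Hoxb6 ran from -0.15 to 0.55 and Hoxa3 from -0.01 to 0.48 over the 17 tumors. The other probe of Hoxb6, measured in 9 tumors, ran from -0.28 to 0.33, and the other probe of Hoxa3 was measured in 0 tumors. Hoxc4 was between -0.04 and 0.53 in 15 tumors and stood at 1.20 in p110-98 and 2.14 in p110-374, which measured it and are 2 of the 3 tumors of weakest color. Hoxb4 was measured in 3 of 5 high-Wnt and 0 of 7 low-Wnt tumors, but its ratio differed by 0.09 ± 0.06 (SE, limma adjusted p = 0.571). Single arrays with Hoxb4 well above background numbered 6 in each of these clusters. The 4 tumors that measured it were all p75-CUX1.

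Adenosquamous and solid carcinomas were compared in a fit with the 5 histological types as groups. No Hox gene of 37 and 0% of all genes passed the adjusted threshold in limma. At an unadjusted p under 0.05 there were 0 Hox genes against 5.5% of all genes. The median Hox difference was 0.01, beside -0.01 over all genes, and 22 of 37 differences were above 0. The lowest p-values belonged to Hoxb9, which was 0.79 ± 0.41 (SE, limma adjusted p = 0.875) higher in adenosquamous carcinomas, Hoxa7, which was -1.46 ± 0.81 (SE, limma adjusted p = 0.875), and Hoxa2, which was 0.49 ± 0.28 (SE, limma adjusted p = 0.875). For Hoxb9, the adenosquamous carcinomas held both p75-80, the highest tumor of all, and p75-101 (-1.80), and the 9 solid carcinomas ran from -2.42 to -0.82, so the types overlapped.

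Between the transgenes, no Hox gene of 37 passed in limma, against 0.504% of all genes (145 genes, 59 or 40.7% of them higher in p75-CUX1 and 86 lower). The share of higher calls was 93.3% with median centering, 56.6% in the tumor's color alone, 28.4% without background correction and 12.3% over the genes measured in at least 5 tumors. At an unadjusted p under 0.05 there were 5 Hox genes (13.5%), 1 higher and 4 lower in p75-CUX1, against 13.8% of all genes. The share of Hox genes was close to that of all genes. The median Hox difference was -0.02, beside 0.0005 over all genes.

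Hoxc10, Hoxa7 and Hoxc5 had the lowest p-values in this comparison. Hoxc10 was measured in 6 tumors, all p110-CUX1, but in 3 of these (p110-121, p110-314 and p110-416) its spots were outliers and gave no ratio. It was -0.74 ± 0.24 (SD, n = 9) in p75-CUX1 and 0.72 ± 1.04 (SD, n = 5) in p110-CUX1 tumors. The difference was -1.45 ± 0.34 (SE, limma adjusted p = 0.0724), and the values did not overlap (exact permutation p = 0.000999). Between the transgenes 1 of the 37 Hox genes did not overlap, and the share of all genes is not given here. Hoxc10 changed with the setting. It passed without p110-143 (limma adjusted p = 0.0477) or without p110-314 (0.0338), which has no value of its own for it. It also passed with Feature Extraction's processed signals (-3.59, limma adjusted p = 0.0159), with the tumor in Cy5 alone (-1.78, 0.0303) and in the tumor's color alone (-1.95, 0.016). Hoxc5 differed by 0.11 ± 0.04 (SE, limma adjusted p = 0.254) and was measured in 3 tumors. The second Hoxc10 probe was measured in 0 tumors and differed by 0.02 (exact permutation p = 0.56).

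Hoxa7 was high in 5 of the 8 p110-CUX1 tumors: 4.20 in p110-98, 3.65 in p110-374, 3.42 in p110-225, 3.32 in p110-121 and 2.25 in p110-143. In the other 3 it was 0.52 in p110-360, 0.30 in p110-416 and -0.70 in p110-314. In p75-CUX1 tumors it ran from -1.12 in p75-94 through a median of -0.0005 in p75-129 to 0.75 in p75-90. The difference was -2.11 ± 0.62 (SE, limma adjusted p = 0.129), and the groups overlapped. Without p110-314 it was -2.51 (limma adjusted p = 0.023), and in the tumor's color alone it was -5.18 (7.28e-05). The Hoxa7 spots of the reference, the same RNA on every array, also differed: their log2 signal after loess and normalization between arrays ran from 8.24 to 10.49 on p75-CUX1 arrays and from 11.61 to 13.18 on p110-CUX1 arrays, without overlap. The value in the tumor's color alone thus holds a difference between the array sets, which cannot be told apart from the transgene.

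Hoxd3 on its bright probe had a like order, with 3.43 in p110-98, 2.94 in p110-374, 2.39 in p110-121, 2.29 in p110-225 and 1.73 in p75-90, and a lowest value of -0.17 in p110-314. The transgenes differed by -0.92 ± 0.46 (SE, limma adjusted p = 0.395). This direction turned with the scaling, to 0.39 with median centering in place of loess and to 1.57 in the tumor's color alone. The log2 signal of the reference for Hoxd3 ran from 11.71 to 15.04 on p75-CUX1 arrays and from 8.36 to 12.21 on p110-CUX1 arrays, so the value of 1.57 also holds a difference between the array sets. The dim Hoxd3 probe ran from -0.09 to 0.37 and was measured in 0 tumors, so the values rest on 1 probe.

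Hoxa7, Hoxd3 and Hoxc10 moved with the strength of the tumor's color. Their log2 ratios had r = -0.923, -0.973 and -0.895 (rho = -0.767, -0.887 and -0.789) with the log2 of tumor over reference at the 95th percentile of spots, over 17, 17 and 14 tumors on the same arrays. For Hoxa11, measured in 0 tumors, r was -0.888 (rho = -0.824) over 17 tumors. Grid control spots, which hold no gene, also had a higher ratio in the same tumors, 5.48 in p110-98, 4.87 in p110-374 and 3.61 in p110-225, against -0.56 to 2.07 in the other 14. The correlation with the control spots was 0.886 for Hoxa7 and 0.898 for Hoxd3. Among the 4644 genes measured in all 17 tumors with a value in each, 8.38% had an r at least as high as Hoxa7 and 7.32% one at least as high as Hoxd3, around a median of -0.07. The strength itself averaged -0.25 in p75-CUX1 and -1.66 in p110-CUX1 tumors (exact permutation p = 0.0312). The control spots averaged 0.10 and 2.64 (exact permutation p = 0.000987). A fit with the strength as a covariate therefore cannot tell it apart from the transgene. In that fit the transgenes differed by -0.69 in Hoxa7 (limma adjusted p = 0.462), by -0.41 in Hoxc10 (0.756) and by 0.21 in Hoxd3 (0.616). Without the 3 tumors of weakest color the values were -1.12 (limma adjusted p = 0.527), -0.55 (0.272) and -0.15 (0.932).

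**Figure D4:**
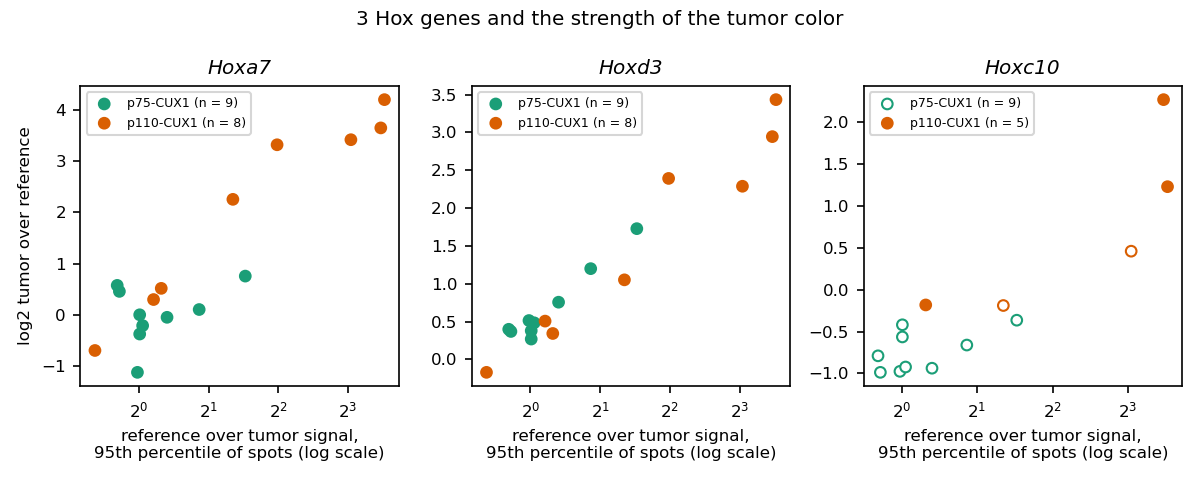
log2 ratio of tumor over reference for Hoxa7, Hoxd3 and Hoxc10 against the signal of the reference over that of the tumor at the 95th percentile of spots (log scale), 1 point a tumor, colored by transgene and filled where the gene was measured. The ratios are highest at the right, where the tumors p110-98 (11.5), p110-374 (11.1) and p110-225 (8.23) lie.

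The genes that act with or on Hox genes were followed in the same 3 fits, and none of 9 Hox cofactors, 5 Cdx and Evx genes, 23 Polycomb genes, 10 Trithorax genes or 17 genes of retinoic acid signaling passed in any of them. Retinoic acid, which switches on Hox genes at the front of the clusters, is cleared by Cyp26b1, which was 2.96 ± 0.59 (SE, limma adjusted p = 0.0552) higher in high-Wnt tumors. Crabp1, which binds retinoic acid, differed by 0.96 ± 0.34 (SE, limma adjusted p = 0.261). At an unadjusted p under 0.05 there were 2 of 17 genes of this list, both higher, against 12% of all genes.

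The cofactor Meis2 differed by 2.46 ± 0.84 (SE, limma adjusted p = 0.234) between high-Wnt and low-Wnt tumors and Meis1, measured in 0 tumors, by 0.17 ± 0.07 (SE, limma adjusted p = 0.36). Of the Polycomb genes, which keep Hox clusters silent, Rnf2 differed by -0.70 ± 0.28 (SE, limma adjusted p = 0.317) and Rbbp4 by -0.58 ± 0.24 (SE, limma adjusted p = 0.352). Of the Trithorax genes, which keep them active, Wdr5 differed by -0.50 ± 0.23 (SE, limma adjusted p = 0.411) and Men1 by -0.14 ± 0.09 (SE, limma adjusted p = 0.585). Evx2, which lies beside the Hoxd cluster, differed by 0.39 ± 0.24 (SE, limma adjusted p = 0.558) and Cdx4 by 0.07 ± 0.06 (SE, limma adjusted p = 0.682). The medians of the lists in this comparison were 0.17 for cofactors, 0.07 for Cdx and Evx, -0.0022 for Polycomb, -0.16 for Trithorax and 0.04 for retinoic acid, beside 0.02 over all genes.

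Between adenosquamous and solid carcinomas the lowest p-values of these lists were those of Ezh2, the Polycomb methyltransferase (0.65 ± 0.22, SE, limma adjusted p = 0.875), Cbx2 (0.96 ± 0.33), Dhrs3 (-1.25 ± 0.45), Rxra (-0.52 ± 0.23), Pknox2 (-0.40 ± 0.16), Meis3 (-0.15 ± 0.07), Rbbp5 (0.59 ± 0.27), Ash2l (0.47 ± 0.25) and Evx2 (-0.28 ± 0.22), all at the same adjusted p, and Evx1 (-0.72 ± 0.74, limma adjusted p = 0.889). Between p75-CUX1 and p110-CUX1 tumors Evx2 and Evx1 differed by -0.56 ± 0.16 (SE, limma adjusted p = 0.128) and -1.88 ± 0.59 (0.156), Pknox2 by -0.56 ± 0.19 (0.175) and Pbx4 by -0.21 ± 0.09 (0.287). Rbbp5 differed by 0.68 ± 0.21 (SE, limma adjusted p = 0.147), Ash2l by 0.53 ± 0.17 (0.162), Cbx2 by 0.70 ± 0.30 (0.293), Suz12 by 0.48 ± 0.24 (0.4), Cyp26a1 by 0.28 ± 0.16 (0.471) and Dhrs3 by -0.70 ± 0.42 (0.502). Evx1, next to the Hoxa cluster, was measured in 9 tumors.

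Markers of cell types were read beside the Hox genes. Between high-Wnt and low-Wnt tumors none of them passed in limma. The lowest p-values were those of Krt17 (2.41 ± 0.87, SE, limma adjusted p = 0.267) and Krt14 (1.96 ± 0.89, 0.397) among basal markers, Prlr (-2.62, 0.297) and Elf5 (-1.76 ± 1.15, 0.581) among luminal markers, Krt1 (1.02 ± 0.40, 0.304) and Ivl (0.15 ± 0.06, 0.307) among squamous markers, and Epcam (-0.92 ± 0.35, 0.298) among epithelial markers. Among markers of other cells they were Kdr (-1.34 ± 0.50, SE, limma adjusted p = 0.283), Emcn (-1.33 ± 0.76), Pdgfrb (0.88 ± 0.51, 0.531), Col1a2 (1.42 ± 0.85, 0.543), Csf1r (0.60 ± 0.77, 0.796), Adipoq (-2.15 ± 1.34, 0.571) and Fabp4 (-1.99 ± 1.69, 0.684). Several of these lists held differences of both signs, none past the threshold. Among luminal markers Krt18 (0.52), Krt8 (0.15) and Gata3 (0.07) lay above 0, and the list's median was -0.43. Among epithelial markers Epcam and Cdh1 (-0.96) lay below 0 and the other 4 above it, with a median of 0.33. Lum (-1.67) and Fap (-0.58) of the fibroblast list, whose median was 0.60, and Ptprc (-0.48) of the immune list lay below 0. The mean over the 8 fibroblast markers ran from -1.81 to 0.88 in high-Wnt and from -3.55 to 0.19 in low-Wnt tumors. Fewer cells of a type and less RNA per cell cannot be told apart in these samples.

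In the other comparisons the basal and squamous markers did not pass. Krt14 differed by 2.22 ± 0.70 (SE, limma adjusted p = 0.151) and Trp63 by 2.00 ± 0.93 (0.354) between the transgenes. In the same lists Myh11 (-1.12) and Krt10 (-0.55) lay below 0. At an unadjusted p under 0.05 in limma there were 2 of 6 basal and 0 of 5 squamous markers, against 13.8% of all genes. In adenosquamous against solid carcinomas Krt14 differed by 3.49 ± 0.70 (SE, limma adjusted p = 0.518), Trp63 by 2.72 ± 1.16 (0.875) and Krt6a by 0.56 ± 0.21 (0.875). Here too Myh11 (-0.81) and Krt10 (-0.16) lay below 0. At an unadjusted p under 0.05 in limma there were 3 of 6 basal and 4 of 5 squamous markers, against 5.5% of all genes.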

How the data were processed

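Amplified RNA of microdissected cells from 17 mammary tumors was compared with amplified reference RNA on 2-color arrays, with swapped dyes. The intensity values deposited by the authors are Feature Extraction spot means and backgrounds, not normalized. The authors' table holds log2 ratios, which were equal to normexp (offset 50), loess and averaging over arrays within 4.98e-08. Ratios were computed again with R 4.3.3 and limma 3.58.1 by the same steps without control and outlier (0.545%) spots, turned to tumor over reference, and averaged over spots and arrays. Genes with several probes were read from the probe of highest mean signal. Of 41174 probes, 22951 (55.7%) matched a RefSeq accession (GRCm38.p6), whose symbol they took. lmFit and eBayes were used, with Benjamini-Hochberg adjusted p under 0.05 over 28787 genes. Differences in means were tested with exact two-sided permutation tests (smaller tail doubled), and scripts were tested on simulated data. p-values measure the spread between tumors.

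Members and lists were chosen with earlier results of these data known. Named were called Hox genes, Hoxb9, those measured in at least 5 tumors, the 3 lowest p-values per comparison, and called members or the 2 lowest p-values of other lists. The opposite-strand probe was set apart after seeing the data. Another Hox gene on the array and a marker gene are not reported here. For the scan day block, tumors with 4 arrays took the day of their first. Alternatives are named below.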

Additional observations from a re-analysis of the deposited data

Results flagged for a closer look

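Single tumors stood apart from their group in 10 of 112 groups of 4 to 10 tumors that were looked at for the named Hox genes, by the gap to the nearest tumor as a share of the group's range. Chance flags about 1 in 20 groups. Hoxc4 accounts for 4 of them. In high-Wnt tumors p110-374 stood at 2.14, against 0.14 for the next (share 0.924). In medium-Wnt tumors p110-98 stood at 1.20, against 0.22 (0.861). p110-360 stood at 0.53, against 0.16 among low-Wnt tumors (0.655) and 0.15 among solid carcinomas (0.663).

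In medium-Wnt tumors Hoxb9 and Hoxa4 were set apart by p75-216, at 0.12 against -0.74 (0.776) and at -0.71 against -0.39 (0.721), and Hoxb7 by p110-121, at 0.20 against -1.59 (0.782). In adenosquamous carcinomas p75-80 stood apart in Hoxc9, at -2.57 against -3.41 (0.908), and in Hoxd3, at 1.20 against 0.51 (0.836). In low-Wnt tumors p110-143 stood apart in Hoxa7, at 2.25 against 0.52 (0.589).

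For 15 Hox genes the effect of the Wnt cluster was also compared between the transgenes (3 and 3 p75-CUX1 tumors, 2 and 4 p110-CUX1 tumors). None passed in limma, and the smallest adjusted p was 0.104, for Hoxa7 (-3.47). Unadjusted p-values under 0.05, found for 12.7% of all genes, were those of Hoxa7 (0.00145), Hoxd3 (0.00652), Hoxa11 (0.00736) and Hoxa4 (0.0134), and over the whole array 18 genes passed. The 15 genes were chosen partly by their values and p-values in these same tumors. Their count therefore cannot be compared with the share of all genes. Both high-Wnt p110-CUX1 tumors, p110-225 and p110-374, are among the 3 of weakest tumor color, with which Hoxa7, Hoxd3 and Hoxa11 move, and the part of the color in these differences was not tested.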

How the results depend on the processing

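The Wnt cluster comparison had 67 genes called, Hoxb9 the one Hox gene. With the authors' table, the filter on dim probes, the mean of all probes and the scan day block, 53 to 75 genes and 1 Hox gene were called. Elsewhere the cause was not tested. The counts were 0 genes and 0 Hox genes without background correction and with median centering, 5 and 0 with Feature Extraction's processed signals, 7 and 0 with Cy5 alone, 9 and 0 with Cy3 alone, 8 and 0 in the tumor's color alone, 16 and 0 with trend and robust estimation, 10 and 0 with color strength as a covariate, 10 and 0 within p75-CUX1, 376 and 2 (Hoxb9 and Hoxa11) within p110-CUX1, 143 and 1 with the high-Wnt and low-Wnt tumors alone, 125 and 1 with the scan year block, and 40 and 0 without the 3 tumors of weakest color. Leaving out each tumor gave 7 to 93 genes and 0 to 1 Hox genes (Hoxc6 without p110-143, otherwise Hoxb9), and the share of higher calls went from 70.1% to 37.5% in the tumor's color alone. Hoxb9 ranged from 0.64 to 2.27, and limma adjusted p from 0.022 to 0.699.

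Between adenosquamous and solid carcinomas 0 genes were called, 1 with processed signals, and 0 to 31 with each tumor left out (31 without p75-101), with 0 Hox genes in each.

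Between the transgenes 145 genes and 0 Hox genes were called. The counts were 218 and 0 without background correction, 304 and 1 (Hoxc10) with processed signals, 1205 and 3 (Hoxa4, Hoxb9 and Hoxc6) with median centering, 315 and 1 (Hoxc10) with Cy5 alone, 71 and 0 with Cy3 alone, 1739 and 3 (Hoxa7, Hoxa11 and Hoxc10) in the tumor's color alone, 270 and 0 with color strength as a covariate, 0 and 0 within solid carcinomas, and 86 and 0 without the 3 weakest tumors. Leaving out each tumor gave 46 to 1084 genes and 0 to 2 Hox genes, with the highest counts without p110-314. Signs turned for Hoxd3 (0.39 with median centering, 1.57 in the tumor's color alone and 0.21 with color strength) and Hoxc5 (-0.24 in the tumor's color alone), and for Hoxc6 between clusters (-0.0045 in the tumor's color alone).

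The difference in Hox genes measured per tumor kept a p of 0.21 or more (exact permutation tests). It was -1.26 between clusters, 0.81 without the 3 weakest tumors, -4.17 with well above background on at least 1 array taken as measured, and -3.11 to 0.27 with each tumor left out (0.27 without p110-314). Between histological types it was -1.31, -3.36 with at least 1 array, and -3.56 to 0.11, and between transgenes -0.25, -1.61 with at least 1 array, -2.60 without the 3 weakest tumors, and -1.38 to 1.14. No paired analysis was possible because the groups share no replicate numbers.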
